A study of Mus musculus with 44 samples.

Results

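The brain cortex arrays of a mouse study of SURF1 loss are described here: every array titled as Surf1 knockout (KO) brain or wild-type (WT) brain was taken, which gave 16 of the 44 arrays. Of these, 8 carried RNA from Surf1-/- mice and 8 carried RNA from Surf1+/+ mice. All were labelled as female B6D2F1/J animals of 8 to 12 months, with no treatment other than the genotype, and the other arrays held liver (8 KO, 8 WT) and fat (6 KO, 6 WT). Total cortex RNA was amplified to biotin-labelled cRNA and hybridised to Illumina bead arrays. A knockout of the whole animal is inferred here, because the labels name no tissue-specific driver. The sources used here do not describe the allele itself.

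SURF1 is a protein of the mitochondrial inner membrane that helps to assemble cytochrome c oxidase, which is complex IV of the respiratory chain and passes electrons to oxygen. Cortex depends heavily on this chain for ATP, and in people the loss of SURF1 is a known cause of Leigh syndrome, a disease of the brain. The comparison asks which transcripts differ in level in cortex when the assembly factor is missing.

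Each array title ends in a number, and these numbers fell into 2 ranges. Among arrays numbered over 500 there were 4 KO (KO_918, KO_1059, KO_1060 and KO_1160) and 3 WT (WT_928, WT_1048 and WT_1240). Among arrays numbered under 300 there were 4 KO (KO_175, KO_231, KO_232 and KO_237) and 5 WT (WT_135, WT_136, WT_138, WT_148 and WT_165). The range therefore crossed the genotype, and it entered the comparison of genotypes as a covariate. The sources used here do not say what the numbers mark. Nothing in the labels says that numbers are separate litters or cages, so every p-value below rests on the spread between arrays, part of which may be technical.

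The probes are reported by identifier alone, because the values did not follow the deposited gene names. The probe paired with Snap25, a synaptic protein that is abundant in neurons, was detected on 0 of the 16 brain arrays, with a deposited intensity of 86 ± 8.91 in KO and 95 ± 5.84 in WT cortex (SD, n = 8 each). Of 51 probes paired with neuron, oligodendrocyte, astrocyte and microglia markers, 24 were detected (47.1%), close to the 49.2% of all 25697 probes, and 4 (7.84%) were over 2-fold brighter in brain than in liver and fat, against 9.34% of all probes. The adipocyte list had 5 of 6 probes detected in brain and the hepatocyte list 3 of 9. The tissue label could thus not be checked through marker genes. The same limit applies to the targeted gene: the probes paired with Surf1, ILMN_2657141 and ILMN_2883561, were detected on 0 and on 1 of the 16 arrays, and the KO minus WT differences of 0.04 (SE 0.06) and -0.11 (SE 0.10) on the log2 scale check nothing about the genotype labels. No gene name, pathway or sequence is therefore attached to any probe below.

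The share of detected probes was similar on most arrays, while the bright end of the signal differed with the number range. The share of probes detected at a detection p under 0.05 averaged 49.8% ± 1.77 in KO and 48.5% ± 3.63 in WT cortex (SD, n = 8 each), a difference of 1.27 percentage points (two-sided exact permutation test within number ranges, p = 0.394). The array's median deposited intensity lay between 99.3 and 116.5 in KO and between 97.8 and 120.8 in WT cortex. The highest intensity of an array lay between 24060 and 29290 over 500 and between 30210 and 43760 under 300, with no overlap. The 95th percentile was 806.4 to 1106 over 500 and 592.2 to 1744 under 300, so the ranges differed in signal before normalization, and the part of this in the range comparison below was not tested. On 4 arrays, all numbered under 300, fewer probes were detected than on any other: WT_136 (45.9%), WT_138 (45.0%), WT_165 (42.8%) and KO_175 (45.7%). The other 12 arrays lay between 48.8% and 52.9%. Liver arrays with the same 4 numbers had 43.4% to 45.6% of probes detected and fat arrays 47.5% to 50.2%, within the 31.3% to 46.7% of all liver arrays and the 46.4% to 51.1% of all fat arrays. No pair of the 120 pairs of brain columns held identical values.

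The number range, and not the genotype, was the main structure of the cortex arrays. The first principal component of the 12648 probes detected on at least 8 of the 16 arrays took 54.7% of the variance, the second 19.7% and the third 4.97%. Along the first, the 7 arrays over 500 lay together between -39.7 and -33.6, and the 9 arrays under 300 were spread between -10.4 (WT_135) and 58.5 (WT_136), with no overlap. KO and WT arrays were mixed within the tight group over 500. The second component ran within the arrays under 300, with WT_135 lowest at -32.4 and WT_165 highest at 55.6.

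**Figure D1:**
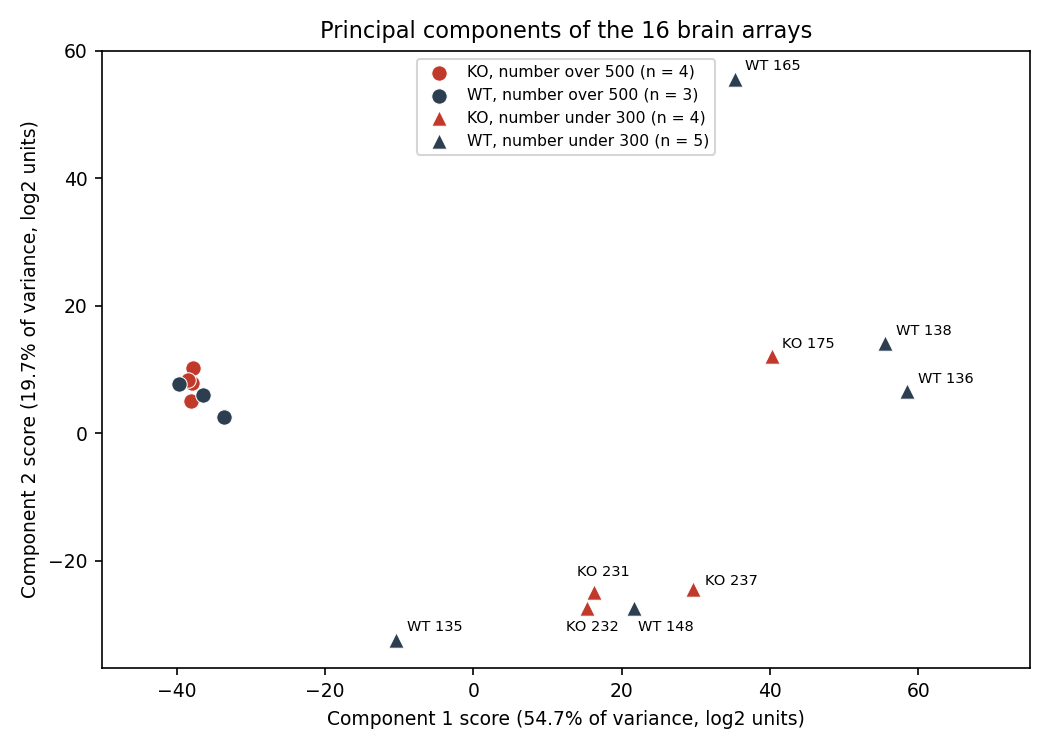
Scores of the 16 brain arrays on the first component (x axis, 54.7% of variance) and second component (y axis, 19.7%), in log2 units; red marks KO and dark blue WT, circles mark numbers over 500 and triangles numbers under 300. The circles of both genotypes fall in a narrow cluster at the left, between -39.7 and -33.6 on the x axis, while the triangles are spread out to 58.5.

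Correlations between arrays gave the same picture in other units. Over 500, the 21 pairs of arrays had Pearson's r between 0.982 and 0.989 over the tested probes. Pairs of KO with WT arrays there (0.982 to 0.988) were about as alike as pairs of KO arrays (0.985 to 0.989) and pairs of WT arrays (0.983 to 0.987). Under 300, the 36 pairs ranged between 0.885 and 0.989, and pairs across the ranges between 0.881 and 0.965. The 4 arrays with the fewest detected probes had r of 0.881 to 0.919 with arrays over 500 and 0.885 to 0.966 with the other 5 arrays under 300, which among themselves had 0.961 to 0.989. These correlations share the probe set and each probe's own brightness, so they are high throughout and only their order is of use.

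**Figure D2:**
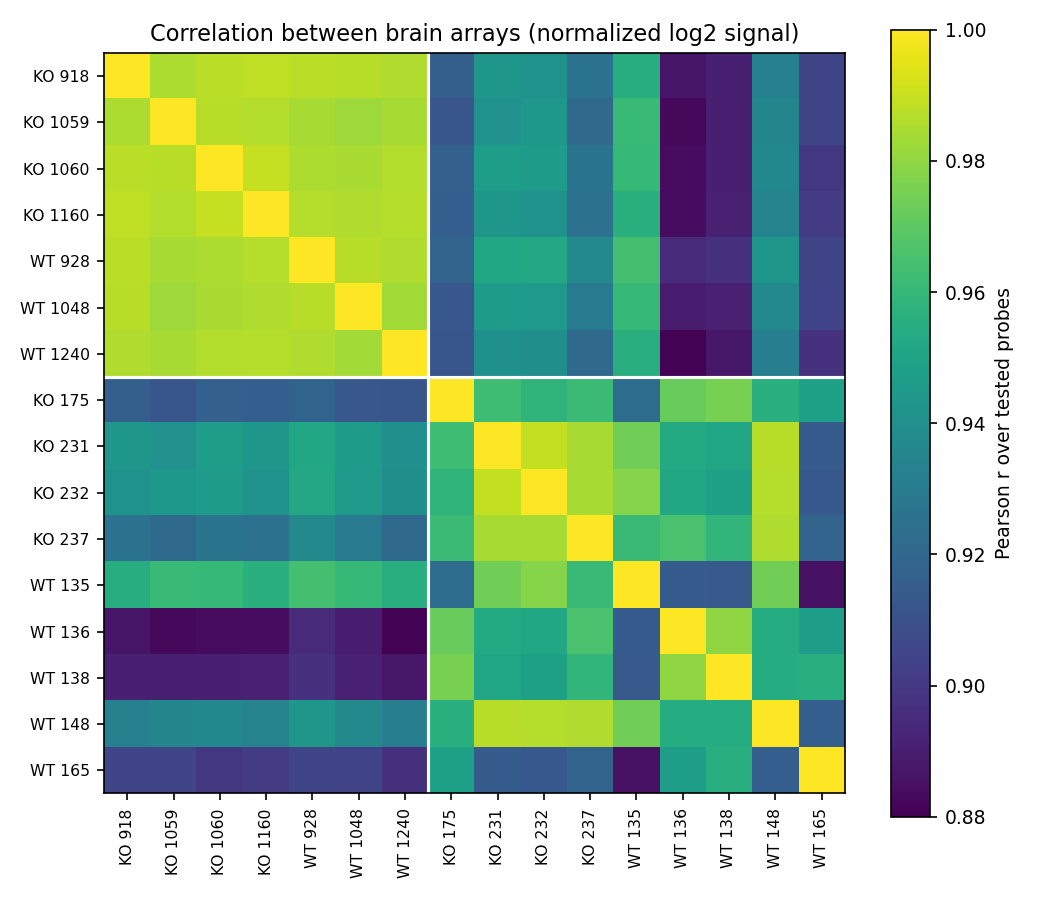
Pearson's r of normalized log2 signal over 12648 probes for each pair of brain arrays; rows and columns run through numbers over 500 (KO, then WT) and under 300 (KO, then WT), and the white lines part the ranges. The block over 500 is uniformly bright (0.982 to 0.989), and WT_136, WT_138 and WT_165 are darkest against it.

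The spread of arrays around their own group also followed the range. An array's distance from its group was taken as the root mean square log2 difference from the mean of the other arrays of the same genotype and range, corrected for the number of those arrays. It averaged 0.169 less over 500 than under 300 (two-sided exact permutation test within genotypes, p = 0.000255, the smallest that the 3920 relabellings can give). The relabelled groups mixed arrays of both ranges, whose mean levels differ, so this p-value does not measure a difference in spread alone. The median residual SD of a probe was 0.182 over 500 (n = 7) and 0.341 under 300 (n = 9), and it was 0.2 among the 5 arrays under 300 that remained without the 4 of fewest detected probes.

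KO cortex arrays lay closer to their group than WT arrays did, but not independently of those 4 arrays. The distance averaged 0.254 ± 0.0746 in KO and 0.373 ± 0.146 in WT cortex (SD, n = 8 each), and the difference of -0.118 had p = 0.0107 (two-sided exact permutation test within number ranges). The largest distances were those of WT_135 (0.586) and WT_165 (0.572), and among KO arrays that of KO_175 (0.428). Without the 4 arrays, 3 of which are WT, the difference was -0.0415 (exact permutation p = 0.223).

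Between KO and WT cortex, 1 of 12648 probes passed an adjusted p of 0.05 with the number range as covariate (0 higher and 1 lower in KO, 0.00791% of probes; limma, Benjamini-Hochberg over all tested probes). Before adjustment, 567 probes (4.48%) had p under 0.05, against 632.4 that a threshold of 0.05 gives when no probe differs. The precision of this comparison can be stated: the median standard error was 0.147 on the log2 scale, and for 12488 probes (98.7%) the 95% interval of the difference lay wholly within 2-fold in either direction. For 10451 probes (82.6%) it lay within 1.5-fold. These intervals take the same spread for both ranges. Fitted alone, the 9 arrays under 300 had 86.4% of intervals within 2-fold and 35.1% within 1.5-fold. The 7 arrays over 500 alone had 99.2% and 82.2%. In the comparison of all brain arrays, point estimates over 2-fold were seen for 8 probes, 2 higher and 6 lower in KO. In bulk cortex, fewer cells of a type and less RNA per cell cannot be told apart, here or in the comparisons that follow.

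ILMN_1224421 was the probe that passed. Over 500 its normalized log2 signal was 5.94, 5.74, 5.69 and 5.89 in KO cortex, against 6.83, 6.33 and 6.68 in WT cortex. Under 300 it was 5.77, 6.46, 5.68 and 5.96 in KO cortex, against 6.75, 6.75, 7.03, 7.35 and 7.09 in WT cortex. In each range every KO array was below every WT array, and over both ranges 7 of 8 KO arrays were below all WT arrays, the exception being KO_231 at 6.46. The difference was -0.93 (SE 0.14; 1.90-fold lower in KO; limma adjusted p = 0.0228), with -0.80 over 500 and -1.03 under 300. The probe was detected on all 16 brain arrays, on 2 liver arrays and on all 12 fat arrays, and in fat the KO minus WT difference was -0.80 (limma adjusted p = 0.153). Without the number range as covariate its adjusted p in cortex was 0.0802 by limma, and over 28 settings of the processing the adjusted p lay between 0.00539 and 0.117, with 19 of them past the threshold. The estimate lay between -1 and -0.344 over the same settings, so its size depends on the processing. Leaving out WT_138, WT_928, WT_1240, KO_232, KO_237, KO_1059, KO_1060 or KO_1160 left 0 probes past the threshold.

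The 2 probes of smallest p among those higher in KO, and the second among those lower, missed the threshold. ILMN_1256564 averaged 5.60 ± 0.24 in KO and 4.98 ± 0.19 in WT cortex (SD, n = 8 each), a difference of 0.61 (SE 0.12; limma adjusted p = 0.292), and 7 of 8 KO arrays were above all WT arrays. It was dim, near the limit of detection, and was detected on 13 of the 16 arrays. ILMN_3018711 differed by 0.82 (SE 0.17; limma adjusted p = 0.292) and ILMN_1222489 by -1.13 (SE 0.26; limma adjusted p = 0.632). Both of these are described further below, since they stood out among the arrays over 500.

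Groups that do not overlap were counted without a test. Over all 16 arrays, 0 probes (0%) separated KO from WT completely. Over 500, KO and WT did not overlap for 930 probes (7.35%), and under 300 for 171 (1.35%). Smaller groups separate more often by chance, and there were 4 KO and 3 WT arrays over 500 against 4 KO and 5 WT under 300. These shares therefore do not compare the ranges, and some separation is due to chance in each. KO and WT were apart in both ranges in the same direction for 4 probes (0.0316%) and in opposite directions for 4 probes (0.0316%). Agreement between the ranges was thus as frequent as disagreement. The 4 in the same direction, chosen after their values were seen, were ILMN_1256564, higher in KO, and ILMN_1224421, ILMN_3008859 and ILMN_1237529, lower in KO. ILMN_1237529 was dim (4.67 to 5.03 in KO and 4.99 to 6.35 in WT cortex). It was detected on 8 of the 16 arrays, the fewest that the filter allows. KO_1060 was the only KO array among them, so this probe passed the filter mainly through WT arrays. ILMN_3008859 had a narrow separation, with 5.82 to 6.20 in KO against 6.25 to 6.47 in WT cortex over 500, and 6.65 to 6.90 in KO against 6.97 to 7.44 in WT cortex under 300.

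**Figure D3:**
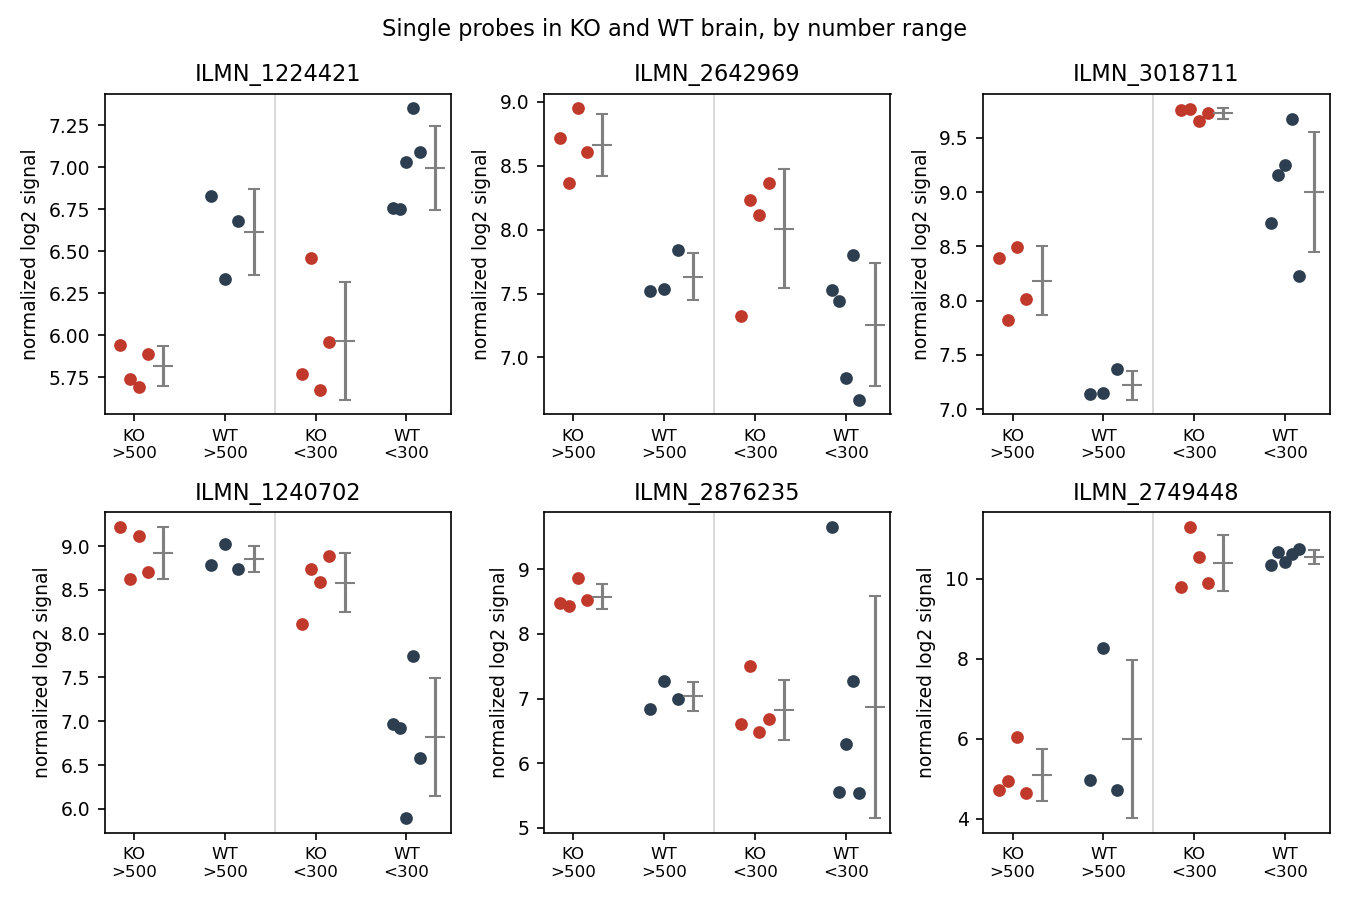
Normalized log2 signal of 6 probes in KO (red) and WT (dark blue) cortex; each point is an array, arrays over 500 are left of the grey line and arrays under 300 right of it, and grey bars give the group mean and SD. ILMN_1224421 is lower in KO in both ranges, ILMN_2642969 and ILMN_3018711 are higher in KO with some overlap under 300, ILMN_1240702 is apart under 300 and overlaps over 500, ILMN_2876235 is apart over 500 and overlaps under 300, and ILMN_2749448 differs by range.

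The range itself was compared next, with the genotype as covariate. Between arrays over 500 and under 300, 6591 of 12648 probes passed (52.1%; 3351 higher and 3240 lower over 500; limma adjusted p under 0.05; 7363 unadjusted, or 58.2%). Estimates exceeded 2-fold for 705 probes higher and 568 probes lower over 500, against the 8 probes of either direction between the genotypes. The median absolute difference was 0.381 on the log2 scale for the range and 0.099 for the genotype. No probe of the genotype comparison was outside -1.42 to 1.10, while the range differences ran between -4.95 and 3.

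**Figure D4:**
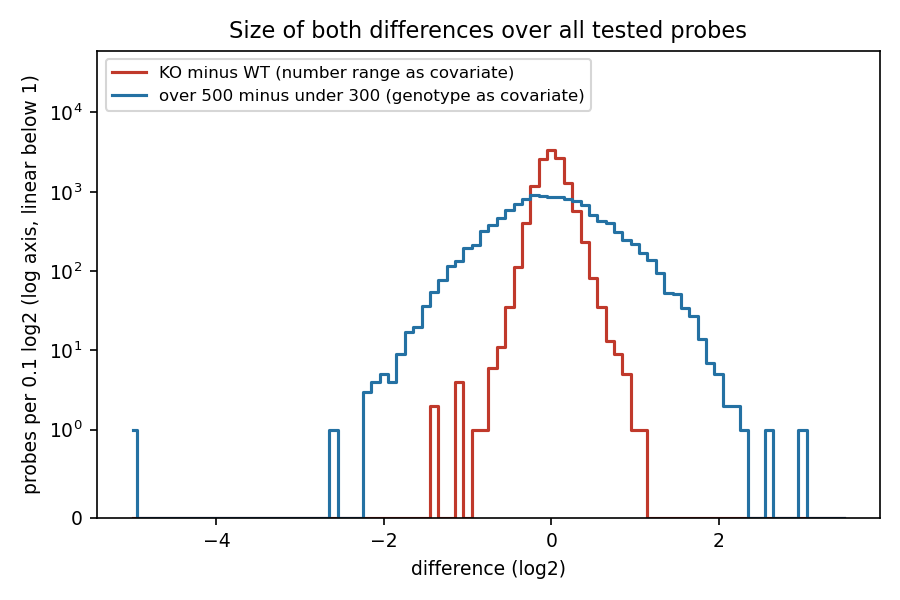
Number of probes (y axis, log scale that is linear below 1) by size of the difference in 0.1 log2 steps (x axis) for KO minus WT (red) and over 500 minus under 300 (blue) over the same 12648 probes. The genotype differences stay between -1.42 and 1.10, and the range differences spread between -4.95 and 3.

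The largest range difference was that of ILMN_2749448. Over 500 its log2 signal was 4.72, 4.93, 6.05 and 4.64 in KO and 4.97, 8.27 and 4.73 in WT cortex, with detection on 1 of 4 KO and 2 of 3 WT arrays. Under 300 it was 9.80, 11.31, 10.56 and 9.91 in KO and 10.34, 10.67, 10.42, 10.62 and 10.75 in WT cortex, with detection on all 9 arrays. The ranges did not overlap, and WT_1048 (8.27) stood between them. The difference was -4.95 (SE 0.40; limma adjusted p = 5.03e-07), a size that depends on the background correction because the probe was detected on 3 of 7 arrays over 500. It was detected on 0 of 16 liver and 0 of 12 fat arrays.

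Other probes with small p-values differed by less, and the 3 named here were detected on all 16 arrays. ILMN_1233759 lay between 9.59 and 10.18 over 500 and between 7.30 and 8.44 under 300, a difference of 1.96 (SE 0.15; limma adjusted p = 5.03e-07). ILMN_2681690 was 2.82-fold higher over 500 (limma adjusted p = 5.59e-07), and ILMN_2463555 was 2.69-fold lower (limma adjusted p = 5.03e-07). ILMN_1233759 and ILMN_2681690 were detected on all 16 brain arrays and on no liver or fat array. Over all tested probes, 1921 (15.2%) did not overlap between the ranges, 1083 higher and 838 lower over 500.

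Both genotypes showed the range difference. Among KO arrays 4357 probes passed (34.4%; 5646 unadjusted, or 44.6%) and among WT arrays 4139 (32.7%; 5585 unadjusted, or 44.2%; limma, 4 group means). The lists shared 2969 probes, which is 68.1% of the KO list and 71.7% of the WT list, and 2968 of these had the same sign. The comparisons use separate arrays but share each probe's spread, which was taken over all arrays, so the lists are not independent. Across 12648 probes, which are not independent replicates, the range differences of both genotypes had Pearson's r = 0.862.

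The probes that differed by range were also described by their level in the other tissues, without a test. Of the probes over 2-fold higher over 500, 42.4% were over 2-fold brighter in brain than in both liver and fat, and of those over 2-fold lower 27.1% were, against 19% of all tested probes. Over all probes that passed, the share was 25.8% of those higher and 18.8% of those lower over 500. Liver arrays also fell into the ranges, with 4 over 500 and 12 under 300. Over the 9353 probes detected in both tissues the range differences of brain and liver had r = 0.109. Of these, 4941 (52.8%) passed by range in brain and 4648 (49.7%) in liver. The share of the brain list that also passed in liver was 49.7%, the same as over all 9353 probes. Of 2457 probes that passed in both tissues, 1491 (60.7%) had the same sign. The liver numbers over 500 were not the brain numbers over 500.

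Within each range, the genotypes were compared with a model of 4 group means that shares its spread over all arrays. Over 500, 0 of 12648 probes passed (0%; 195 at an unadjusted p under 0.05, or 1.54%; limma). Under 300, 1 probe passed (0.00791%; 873 unadjusted, or 6.9%). The difference between the KO effects of both ranges was tested as an interaction, and 0 probes passed (0%; 423 unadjusted, or 3.34%). These counts depend on how arrays are weighted: with array weights, 17 probes passed over 500, 812 under 300 and 3 in the interaction, and without WT_135 22 passed under 300.

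ILMN_1240702 was the probe that passed under 300. Its log2 signal there was 8.11, 8.74, 8.59 and 8.88 in KO cortex, against 6.97, 6.93, 5.89, 7.74 and 6.58 in WT cortex, and the groups did not overlap. Over 500 it was 9.22, 8.63, 9.12 and 8.71 in KO cortex, against 8.79, 9.02 and 8.74 in WT cortex, and these overlapped. The KO minus WT difference was 1.76 under 300 (SE 0.27; 3.38-fold higher in KO; limma adjusted p = 0.0464) and 0.07 over 500 (SE 0.31; limma adjusted p = 1). The interaction was -1.69 (SE 0.41; limma adjusted p = 0.996), and it passed in 1 of 26 settings, with adjusted p between 0.0136 and 1. The difference under 300 passed in 11 of 27 settings, with limma adjusted p between 0.000173 and 0.723, and leaving out any array other than WT_135, WT_148, KO_175 or KO_237 left 0 probes past the threshold. In the other tissues the KO minus WT difference of this probe was 0.77 in liver (limma adjusted p = 0.145) and 1.17 in fat (limma adjusted p = 0.0307).

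Because the arrays over 500 were so much alike, they were also fitted alone. Among these 7 arrays, 25 probes passed (0.198%; 19 higher and 6 lower in KO; 948 unadjusted, or 7.5%; limma), with absolute differences of up to 1.54. The 9 arrays under 300 alone gave 0 (0%; 438 unadjusted, or 3.46%). This contrast in counts goes with the residual spread given above and does not show that the KO effect differs between the ranges, for which the interaction had 0 probes with equal weights and 3 with array weights. The smallest p-values over 500 within each direction belonged to ILMN_2876235 (1.54, SE 0.14; limma adjusted p = 6.66e-05) and ILMN_2967622 (0.78, SE 0.09; limma adjusted p = 0.00134), higher in KO, and to ILMN_2696610 (-0.96, SE 0.14; limma adjusted p = 0.0043) and ILMN_2875089 (-0.47, SE 0.08; limma adjusted p = 0.0144), lower in KO.

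The arrays under 300 share no array with those over 500, so the 25 probes could be read there without choosing them again. Of the 25, 22 (88%) had the same sign under 300, against 47.8% of all tested probes, and the median difference in the direction seen over 500 was 0.35, against 0.783 over 500. The 25 probes were read on the same arrays and are not independent replicates, so a factor shared by arrays could move them together. Under 300 the arrays with the fewest detected probes (WT_136, WT_138, WT_165 and KO_175) were mostly WT, and their part in this share was not tested. By direction, 18 of the 19 higher and 4 of the 6 lower probes kept their sign, although ILMN_2917713, among the 4, was at -0.000712 under 300. The longer lists did not behave so: of the 948 probes at an unadjusted p under 0.05 over 500, 47.7% had the same sign under 300, and of the 100 with the smallest p 63% had. Across all 12648 probes the KO minus WT differences of both ranges had Pearson's r = -0.0203 and Spearman's rho = -0.0507, so most of the ordering over 500 was not found again.

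**Figure D5:**
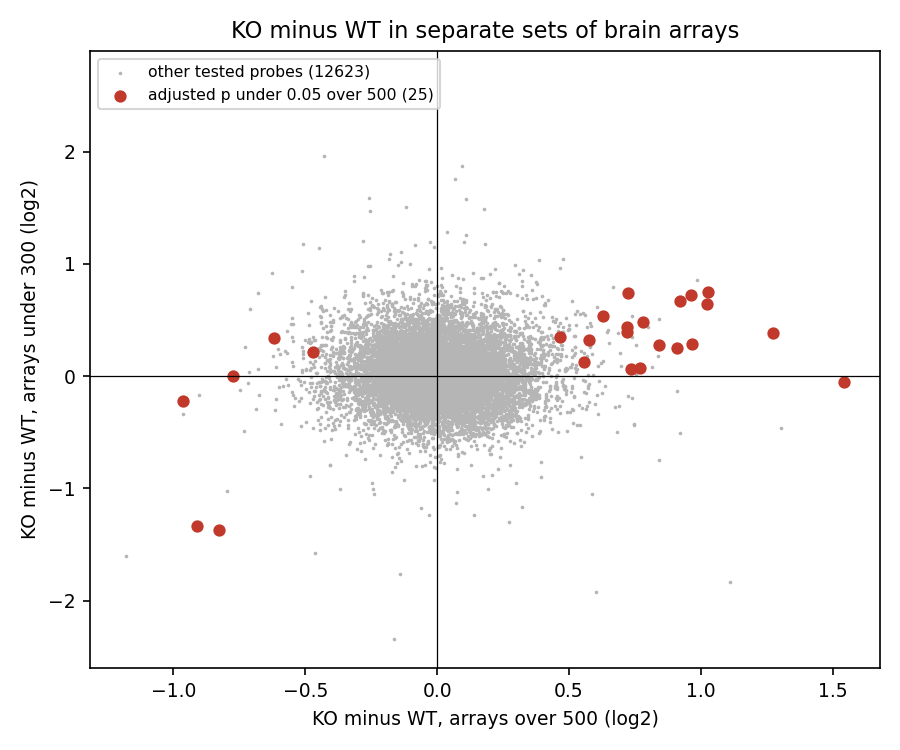
KO minus WT difference in log2 units among the 7 arrays over 500 (x axis) and the 9 arrays under 300 (y axis) for every tested probe; red points are the 25 probes that passed over 500. Of the red points, 22 lie where both differences have the same sign, whereas the grey cloud shows no slope (r = -0.0203).

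The top probe over 500 was among those that did not recur. ILMN_2876235 had 8.47, 8.44, 8.86 and 8.53 in KO cortex over 500, against 6.84, 7.27 and 6.99 in WT cortex. Under 300 it had 6.60, 7.51, 6.48 and 6.69 in KO cortex, against 9.66, 5.56, 6.30, 7.28 and 5.53 in WT cortex. The separation over 500 was complete, and under 300 the WT arrays lay on both sides of all KO arrays, for a difference of -0.05 (SE 0.69). ILMN_2875089 changed sign, with 0.22 under 300 (SE 0.16).

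An unadjusted p under 0.05 under 300 was reached by 5 of the 25 probes, all in the direction seen over 500, against 239 of all 12648 tested probes in the same direction and 199 in the opposite one. The 5 were named after their values were seen. ILMN_2642969 had 8.72, 8.37, 8.95 and 8.61 in KO cortex over 500, against 7.52, 7.53 and 7.84 in WT cortex. Under 300 it had 7.33, 8.23, 8.12 and 8.36 in KO cortex, against 7.53, 7.44, 6.84, 7.80 and 6.67 in WT cortex. KO_175, at 7.33, was the KO array below some WT arrays, and the other 7 KO arrays were above all WT arrays. Under 300 the lowest values were those of the 4 arrays with the fewest detected probes (WT_136, WT_138, WT_165 and KO_175). The part of these arrays in the difference under 300 was not tested. The differences were 1.03 over 500 (SE 0.14; limma adjusted p = 0.00304) and 0.75 under 300 (SE 0.28), and over all arrays 0.87 (SE 0.18; limma adjusted p = 0.292).

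ILMN_2892480 was similar. It had 8.03 to 8.14 in KO cortex over 500, against 7.37 to 7.54 in WT cortex, and 7.58 to 7.93 in KO cortex under 300, against 6.76 to 7.62 in WT cortex. Over both ranges 7 of 8 KO arrays were above all WT arrays, although KO_175 (7.6186) was practically level with the highest WT array, WT_136 (7.6184). The exception was KO_231 at 7.58. The differences were 0.63 over 500 (SE 0.12; limma adjusted p = 0.0266) and 0.54 under 300 (SE 0.21).

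ILMN_3018711 carried a range difference as well as a genotype difference. Over 500 it had 8.39, 7.82, 8.50 and 8.02 in KO cortex, against 7.14, 7.15 and 7.37 in WT cortex. Under 300 it had 9.76, 9.76, 9.65 and 9.73 in KO cortex, against 8.71, 9.16, 9.25, 9.67 and 8.23 in WT cortex. Thus KO was higher within each range, with WT_148 reaching the KO level under 300, while 3 of 8 KO arrays were above all WT arrays when the ranges were pooled. The KO minus WT difference was 0.96 over 500 (SE 0.16; limma adjusted p = 0.0144) and 0.72 under 300 (SE 0.25), and the difference over 500 minus under 300 was -1.66 (SE 0.17).

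ILMN_1222489 and ILMN_2745370 were the lower probes of the 5. ILMN_1222489 had 6.42 to 6.64 in KO cortex over 500, against 7.24 to 7.58 in WT cortex, and 6.65 to 8.33 in KO cortex under 300, against 7.49 to 9.39 in WT cortex. ILMN_2745370 had 6.20 to 6.62 in KO cortex over 500, against 7.15 to 7.44 in WT cortex, and 5.51 to 7.23 in KO cortex under 300, against 6.22 to 8.98 in WT cortex. In both, the groups were apart over 500 and overlapped under 300, with KO_175 the highest KO array and WT_135 the lowest WT array there. In both, the highest values under 300 were those of the 4 arrays with the fewest detected probes (WT_136, WT_138, WT_165 and KO_175). The part of these arrays in the differences under 300 was not tested. The differences over 500 were -0.83 (SE 0.14; limma adjusted p = 0.0144) for ILMN_1222489 and -0.91 (SE 0.15; limma adjusted p = 0.0144) for ILMN_2745370.

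The KO effect in cortex was last set against that in the other tissues, in a fit of all 44 arrays with the number range within brain and within liver. All fat arrays were numbered under 300. The KO effect in fat therefore rests on that range alone, and the effect in brain on both ranges. It differed between brain and liver for 1 of 9353 probes (0.0107%; 618 unadjusted, or 6.61%; limma) and between brain and fat for 59 of 10473 (0.563%; 42 with a higher and 17 with a lower KO minus WT difference in brain; 1157 unadjusted, or 11%). Tested by itself, liver had 24 of 11117 probes that passed between the genotypes (with the number range as covariate), and fat 5 of 12468.

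The named probes that passed differed in which tissue held the larger KO minus WT difference. ILMN_2853744 had a KO minus WT difference of -0.29 in brain and 0.93 in liver, which differed by -1.22 (SE 0.21; limma adjusted p = 0.00403). ILMN_1243722 had -0.02 in brain and -1.10 in fat, which differed by 1.08 (SE 0.16; limma adjusted p = 0.000225). ILMN_2623393 had 0.29 in brain and -1.96 in fat, and ILMN_2704802 had -0.07 in brain and 1.08 in fat. In these 4 the estimate was larger outside the cortex. ILMN_2745370 had -1.15 in brain and 0.86 in fat, which differed by -2.01 (SE 0.36; limma adjusted p = 0.00542). ILMN_1222489 had -1.13 in brain and 0.44 in fat, and ILMN_2892480 had 0.58 in brain and -0.39 in fat, with differences of -1.58 (SE 0.29; limma adjusted p = 0.00542) and 0.97 (SE 0.19; limma adjusted p = 0.00697). In the last 3 the estimate was larger in cortex and of opposite sign in fat. These 3 had also been named for their difference in cortex, a choice that favours a larger estimate there. The named probes are examples and do not count which tissue held the larger effect.

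Among the 2399 tested probes over 2-fold brighter in brain than in liver and fat, 0 passed between KO and WT cortex. At an unadjusted p under 0.05 there were 152 (6.34%; limma), against 4.48% of all tested probes. Over the 2399 probes the median KO minus WT estimate was 0.06 on the log2 scale, against 0.01 over all tested probes. Of the 4 arrays with the fewest detected probes 3 are WT, and their part in this shift was not tested.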

How the data were processed

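Per the file headers, the deposited table without normalization gave an average signal and a detection score for each probe and array; the signal is a bead intensity on a linear scale, and 1 minus the deposited score was used as the detection p. The authors' processed values, on the log2 scale, for which the submitters' processing notes name lumi, served as an alternative. Intensities were corrected by normexp from the detection p (offset 16), quantile normalized within tissue and put on the log2 scale with limma 3.58.1 (statmod 1.5.0, R 4.3.3). Probes detected (p under 0.05) on at least 8 of 16 brain arrays were tested, 12648 of 25697. Linear models with genotype and number range were fitted with an intensity trend, and p-values were adjusted by Benjamini-Hochberg. The number of arrays limits the precision. The procedure was tested on simulated data with independent noise and, for each probe, the same spread on every array. That setting leaves out the unequal spread of the ranges. For each comparison the 2 higher and 2 lower probes of smallest p were named, with ILMN_1224421 and ILMN_1240702. The groups, lists and tests were chosen with earlier results of these data known. The alternatives concerned background, normalization, filter, variance model, covariate, array weights and single arrays.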

Additional observations from a re-analysis of the deposited data

Results flagged for a closer look

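KO_175 stood apart from the other KO brain arrays in 2 measures of array quality. Its share of detected probes was 45.7%, while the other 7 KO brain arrays lay between 49.5% and 51.5%. Its distance from its group was 0.428, against 0.198 to 0.264 for the other 7. In all, 21 groups of values were examined in this way and 2 were marked, and chance marks about 1 in 20.

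For 7 named probes the KO effect in cortex differed from that in another tissue. The difference between the effects was -1.22 for ILMN_2853744 (brain minus liver, limma adjusted p = 0.00403). For brain minus fat it was 1.08 for ILMN_1243722 (limma adjusted p = 0.000225), 2.25 for ILMN_2623393, -2.01 for ILMN_2745370, -1.15 for ILMN_2704802 and -1.58 for ILMN_1222489 (limma adjusted p = 0.00542 each), and 0.97 for ILMN_2892480 (limma adjusted p = 0.00697).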

How the results depend on the processing

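No result reversed its direction under the alternatives run. Between KO and WT cortex the count of 1 probe became 0 without the covariate, 6 with array weights and 5 without the 4 arrays of fewest detected probes. Leaving out each array in turn gave 0 to 2: 0 without WT_138, WT_928, WT_1240, KO_232, KO_237, KO_1059, KO_1060 or KO_1160, and 2 without WT_135, WT_148 or KO_175. ILMN_1224421 passed in 19 of 28 settings. Over 500, the count of 0 became 17 with array weights, 6 without the 4 arrays and 25 with the 7 arrays alone, and stayed at 0 to 0 with each array left out. Under 300, the count of 1 became 812 with array weights (541 higher and 271 lower), and 0 without an intensity trend, without the 4 arrays or with the 9 arrays alone; with each array left out it was 0 to 22. It was 22 without WT_135, 3 without KO_237, 2 without WT_148, 1 without KO_175 and 0 without each of the other 12. The interaction had 3 probes with array weights and 0 to 0 with each array left out. The count between ranges lay between 5988 and 7172 with each array left out. The cause of these changes was not tested.

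Brain minus liver gave 2 probes with the authors' values, 5 without a filter on dim probes and 0 without the 4 arrays, against 1. Brain minus fat gave 18 without the number range, 158 with the authors' values, 142 without the filter and 31 without the 4 arrays, against 59. With the replicate block, which takes the array number as a random block across tissues (consensus correlation 0.0511), there were 1 and 72 probes. No paired analysis was possible within brain because KO and WT arrays share no number.

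The difference in distance from the group, -0.118, was -0.0415 without the 4 arrays (exact permutation p = 0.223) and lay between -0.157 and -0.0793 with each array left out, an alternative chosen after seeing the data. Dim probes such as ILMN_1256564 are limited by their signal over background.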
